A study of Mus musculus with 6 samples.

Results

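The genes that flank the duplicated stretch of mouse chromosome 7 in patDp/+ mice were examined in the epididymal white adipose tissue, which is the visceral fat pad attached to the epididymis. The rule for members uses position and signal, not the difference between genotypes. A feature of the array entered if its probe lies on chromosome 7 (mm9) with a lower coordinate from 55.5 to 63.34 Mb or from 69.65 to 79.5 Mb, and if the probe was well above background on at least 3 of 6 arrays. Each gene name was represented by its brightest probe. Of 99 gene names with 145 probes in both windows, 57 were members, 16 on the centromeric side and 41 on the telomeric side, out of 19009 features measured on the whole array. The remaining 42 gene names did not pass the signal rule, 30 of them on no array and 12 on 1 or 2 arrays.

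The arrays came from 3 patDp/+ males and 3 wild type males, 1 array per animal, all 9 to 10 weeks old and on a C57BL/6 background. patDp/+ animals carry an engineered additional copy of the stretch between both windows, inherited from the father, in every cell, and the wild type animals carry none. The exact breakpoints are not given in the sources used here, so distance is counted from the inner bounds of the windows, called the edges, and the copy number of the neighbours was not measured. All values are log2 of the background-subtracted signal relative to the 75th percentile of the array, differences are patDp/+ minus wild type, and errors of differences are limma's standard errors (SE). In bulk tissue, fewer cells of a type and less RNA per cell cannot be told apart.

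The human counterpart of the stretch, 15q11-13, is recombined between blocks of repeats, so that patients differ in whether neighbouring genes share the extra copy. On its one side lie NIPA1, NIPA2, CYFIP1 and TUBGCP5, which some duplications include, and on the other KLF13, MTMR10 and CHRNA7, which belong to a separate recurrent rearrangement. In the mouse these genes lie outside the stretch between both windows, as do the more distant neighbours whose human counterparts lie at the far end of chromosome 15 and on the short arm of chromosome 11. A gene outside a rearrangement can still differ in expression when the rearrangement alters its surroundings, and the neighbours are the genes in which such a difference would be looked for.

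The probes behind the largest differences are shown so that each value can be traced to the transcript that it reports. They are the features that passed an unadjusted limma p under 0.05, with the second probe of Pcsk6. The letters are the first 30 of 60 bases of each probe, read 5′ to 3′ from the array's annotation.
Chsy1 (chr7:73318599-73318658, plus strand): ttggagatctgcttatttgtaaatagccta
Pcsk6, brightest probe (chr7:73195129-73195188, plus strand): ctcagctgttgtctgttgaatccacacttc
Pcsk6, other probe (chr7:73192472-73192531, plus strand): gctccagtaggaactgcagcagatgtaaag
ENSMUST00000050869 (chr7:56748910-56748969, plus strand): gagggctcacttcttaaagcttaaaccctg
BB437157 (chr7:77451690-77451749, minus strand): tttgggaaatatacccagggatcttgggat
ENSMUST00000080024 (chr7:77555764-77555823, plus strand): ggattttgttgtacatgaccacaaaagaaa
The Pcsk6 probes share no sequence position, since their coordinates do not overlap. Positions are probe positions on mm9 as the array's annotation gives them, and whether a probe lies in a coding or an untranslated part of its gene was not analysed here. Of the member probes, 6 span more than 60 bases of the genome, those of Klf13, ENSMUST00000008043, Mphosph10, Snrpa1, Htatip2 and NAP114798-1. Whether these cross a splice junction was not analysed.

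As a group, the neighbours did not differ between the genotypes in a common direction. Their median difference was 0.00, against -0.01 for all 19009 features, and 29 of 57 lay above 0. No member passed limma's adjusted p, in a comparison in which 0% of all features did. At an unadjusted limma p under 0.05, 5 members passed, 1 higher and 4 lower in patDp/+ fat, 8.77% of the members beside 5.62% of all features in either direction, 2.7% higher and 2.91% lower. The 1 that was higher is Chsy1 and the 4 that were lower are Pcsk6, ENSMUST00000050869, BB437157 and ENSMUST00000080024. BB437157 met the signal rule only through its 3 wild type arrays, so its place among the lower members was favoured by the rule and supports nothing. Groups did not overlap in 11 members, 19.3% of them, against 11.1% of all features.

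The 17 features between both windows show what the extra copy looked like on these arrays. Their median difference was 0.75, and 13 of them passed the unadjusted threshold upwards. They were not uniform, since 14 of 17 lay above 0 and the differences ran from -0.58 to 1.21. At the ends of the stretch, Herc2, a large ubiquitin ligase gene, was higher by 0.51 ± 0.14 (1.42-fold), and Mkrn3, a paternally expressed gene, by 0.90 ± 0.11 (1.87-fold). For a gene expressed from all of its copies alike, a step from 2 to 3 copies corresponds to 0.58 on the log2 scale. Paternally expressed genes such as Mkrn3 are not covered by it, and the estimate for Herc2, inside the stretch, lay below 0.58. The 95% interval of the difference, from limma's standard errors, lay below that value in 49 of 57 neighbours and reached it in 8. Of these 8, only Chsy1 was measured precisely (0.49 to 0.83). The intervals of the others, Siglech, AK086452, A_52_P796719, Apba2, E430014L09Rik, A430081F14Rik and Mctp2, included 0 as well.

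**Figure D1:**
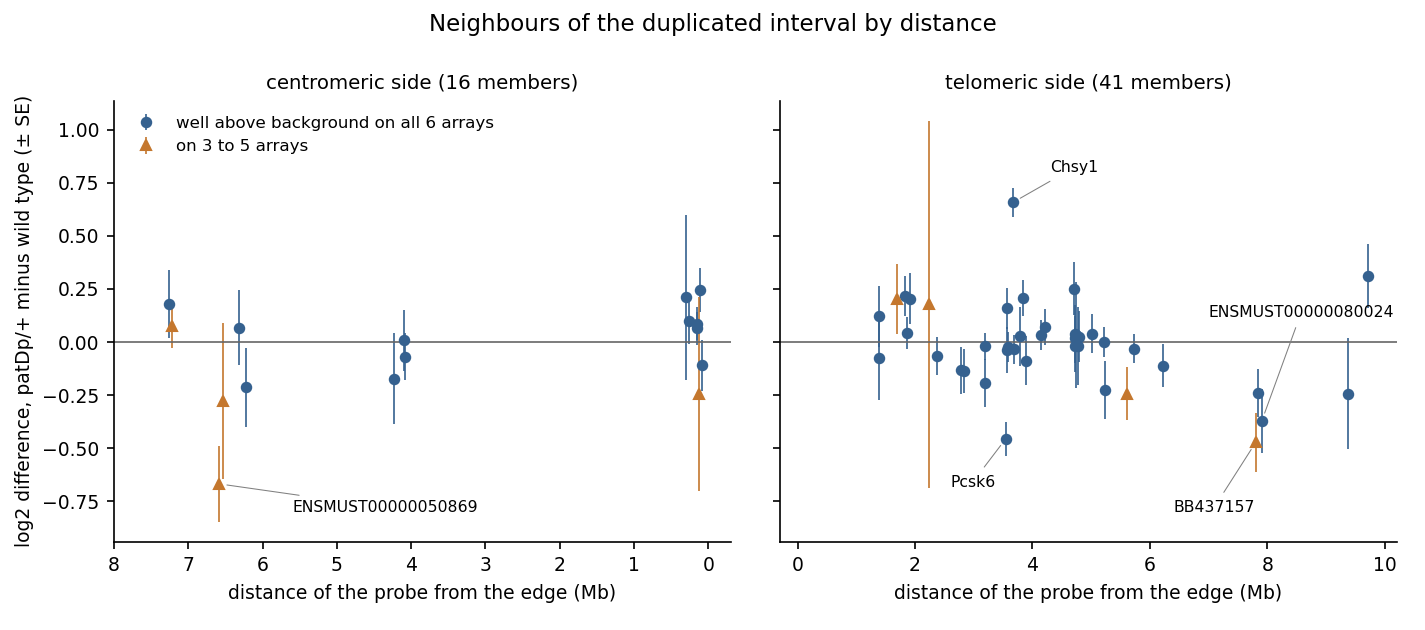
Log2 difference between patDp/+ and wild type fat (± SE, 3 animals per group) for each of the 57 neighbours against the distance of its probe from the nearer edge in Mb, the centromeric side drawn towards the left. Circles are members well above background on all 6 arrays and triangles those on 3 to 5 arrays, and the 5 members at an unadjusted limma p under 0.05 are named. Chsy1 and Pcsk6 stand apart in opposite directions at similar distances, among neighbours close to 0.

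Differences were set out by distance in bands of under 1, 1 to 3, 3 to 6 and over 6 Mb. The nearest member lies 89.8 kb from the centromeric edge and 1387 kb from the telomeric one, so no member fell under 1 Mb on the telomeric side or between 1 and 3 Mb on the centromeric side. Under 1 Mb on the centromeric side, 7 members had a median difference of 0.09, and 0 of them passed the unadjusted threshold. Between 1 and 3 Mb on the telomeric side the median of 10 members was 0.08, again with 0 passing. The medians of these nearest bands were thus above 0 on both sides, and no test was made of them.

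Farther out the medians lay at or below 0. On the centromeric side they were -0.07 over 3 members between 3 and 6 Mb and -0.07 over 6 members beyond 6 Mb, where ENSMUST00000050869 passed as lower. On the telomeric side the 25 members between 3 and 6 Mb had a median of 0.00, with Chsy1 higher and Pcsk6 lower. The 6 members beyond 6 Mb had a median of -0.24, with BB437157 and ENSMUST00000080024 lower. BB437157 and ENSMUST00000050869 met the signal rule through their wild type arrays, so low patDp/+ values were favoured in both far bands. With another background correction (normexp), BB437157 turned to 0.56, ENSMUST00000080024 to 0.19 and ENSMUST00000050869 to 0.52. Arrdc4 (-0.06) and Nr2f2 (-0.35) stayed below 0 there. The far medians therefore carry no weight as a trend with distance. Across members, Spearman's rho between distance and difference was -0.18 on the centromeric side (n = 16) and -0.31 on the telomeric side (n = 41), a description over genes that share 6 arrays and lie in clusters.

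The arrays of each replicate number shared a slide, which allowed 3 comparisons within a slide. The median over all members was 0.03 on slide 1, 0.00 on slide 2 and -0.02 on slide 3. The band medians moved more. Under 1 Mb on the centromeric side they were 0.21, -0.02 and 0.10, and between 1 and 3 Mb on the telomeric side 0.13, 0.09 and -0.06, so neither band was above 0 on every slide. Beyond 6 Mb on the telomeric side the medians were -0.36, -0.37 and -0.05, all below 0. The slides share the signal rule and the background correction, so this is no separate support for a lower far band.

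**Figure D2:**
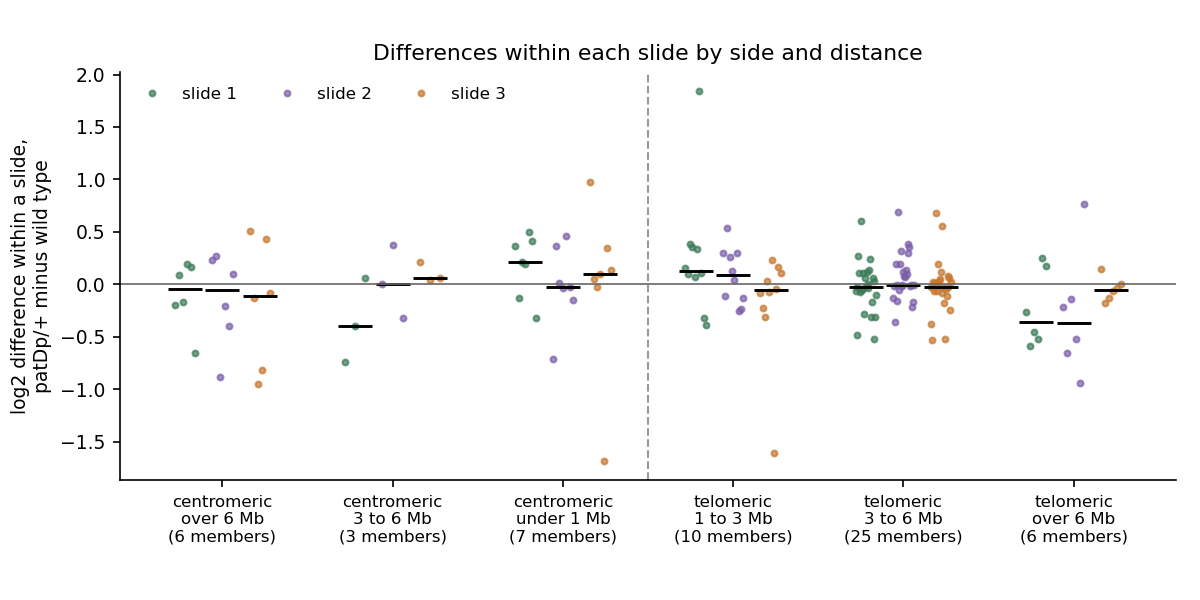
Log2 difference between the patDp/+ and the wild type array of the same slide for each member, by side and distance from the edge, with one colour per slide and a black bar at the median. The dashed line stands for the duplicated stretch. The median was below 0 on all 3 slides beyond 6 Mb on both sides and, by at most 0.02, between 3 and 6 Mb on the telomeric side. The bands beyond 6 Mb include dim members whose low patDp/+ values the signal rule favoured.

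Nearest to the centromeric edge lie the genes that in humans separate the outer from the inner breakpoint. Nipa1, a magnesium transporter gene 106 kb from the edge, had values of 1.05, 1.25 and 1.03 in wild type and 1.46, 1.23 and 1.38 in patDp/+ fat. The groups overlapped through the second animal of each, and the difference of 0.25 ± 0.10 did not pass (limma unadjusted p = 0.0514). Its interval ran from 0.00 to 0.49. The other Nipa1 probe, which is dim, gave -0.06 ± 0.11.

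Cyfip1, which encodes a subunit of the actin-regulating WAVE complex and a partner of the fragile X protein, was bright and nearly equal in both groups. Its values were 3.27, 3.34 and 3.35 in wild type and 3.48, 3.35 and 3.32 in patDp/+ fat, a difference of 0.06 ± 0.08 (interval -0.13 to 0.25). Its other probes gave 0.04 ± 0.09 and 0.13 ± 0.08. Nipa2, a second magnesium transporter gene, differed by 0.09 ± 0.08 and Tubgcp5, of the gamma-tubulin ring complex, by 0.10 ± 0.11. By their brightest probes, all 4 genes of this group lay above 0, with a median of 0.09 and 0 past the unadjusted threshold. The second probe of Tubgcp5 gave -0.14 ± 0.19 and that of Nipa2 0.00 ± 0.08, so the sign depended on the probe for Nipa1 and Tubgcp5. In each of the 4, the 95% interval ended below the value for a step from 2 to 3 copies.

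The other members under 1 Mb are 2 unnamed cDNAs and Siglech. AK038901, the nearest of all, differed by -0.11 ± 0.12, and AK086452, on 3 arrays only, by -0.24 ± 0.46. Siglech, a surface lectin gene of plasmacytoid dendritic cells, had 0.21 ± 0.39, and its wild type values alone ran from -5.13 to -3.53. The interval of AK038901 ran from -0.40 to 0.18, similar in width to that of Tubgcp5, while the other 2 were too variable to exclude either 0 or a step from 2 to 3 copies.

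Among members, the nearest to the telomeric edge is Klf13, a zinc finger transcription factor gene. AK076582, Chrna7, AK078620 and Otud7a lie nearer, and none of them was well above background on any array. The array's annotation describes ENSMUST00000008043, the next member, as a Klf13 transcript as well, so both are listed under 1 gene there. Klf13 had values of 1.80, 1.48 and 1.59 in wild type and 1.95, 1.77 and 1.51 in patDp/+ fat, with overlapping groups and a difference of 0.12 ± 0.14. The dimmer ENSMUST00000008043 gave -0.08 ± 0.20. The unannotated probe A_52_P796719 gave 0.20 ± 0.17.

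Mtmr10, which encodes a myotubularin-related protein, had values of -0.21, -0.27 and -0.14 in wild type and 0.15, -0.01 and -0.11 in patDp/+ fat. The groups did not overlap, but the gap between the nearest animals was narrow and the difference of 0.22 ± 0.09 missed the unadjusted threshold (limma unadjusted p = 0.0581). A second Mtmr10 probe gave 0.23 ± 0.11 and the dimmest one, nearer to the edge, -0.04 ± 0.14. Mcee, the methylmalonyl-CoA epimerase gene of propionate breakdown, likewise had separate groups at 0.20 ± 0.12. Mphosph10, of the ribosome-processing U3 particle, differed by 0.04 ± 0.07, Ndnl2, of the SMC5/6 complex, by -0.07 ± 0.09, and Tjp1, the tight junction gene ZO-1, by -0.13 ± 0.11.

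Tarsl2, a threonyl-tRNA synthetase-like gene just beyond 3 Mb, was entered in the list matching human 15q13, together with Tm2d3, although the human counterparts of both lie at 15q26. Its values were -0.26, -0.18 and 0.11 in wild type and -0.33, -0.31 and -0.27 in patDp/+ fat, with no overlap and a difference of -0.19 ± 0.11 (limma unadjusted p = 0.135). Over this list, 8 of 12 genes on the array were measured, 4 above 0, with a median of 0.05 and 0 past the unadjusted threshold. The list was drawn up from general knowledge. The human positions of its other genes, Mcee among them, were not checked here. Chrna7, Otud7a, Trpm1 and Fam189a1 were not well above background on any array.

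The clearest single difference was that of Chsy1, a chondroitin synthase gene whose product extends the sugar chains of matrix proteoglycans. Its values were 1.05, 0.94 and 0.95 in wild type and 1.65, 1.63 and 1.63 in patDp/+ fat. The patDp/+ animals were almost identical and all lay well above every wild type animal. The difference of 0.66 ± 0.07 (1.58-fold) ranked 3 by p among all features and did not pass adjustment (limma unadjusted p = 7.11e-05, adjusted p = 0.344, 0.131 to 0.883 over the alternatives). On the slides it was 0.60, 0.69 and 0.68. The exact permutation test over the 6 arrays gave 0.1, the smallest p that 3 against 3 allows.

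Chsy1 has 1 probe that met the signal rule, so its value has no second such probe beside it. The next member on the same strand, NAP114798-1, an unannotated feature 17.1 kb farther from the edge, had a difference of -0.04 ± 0.07. On the other side of Chsy1, H47, the selenoprotein S gene of the endoplasmic reticulum, differed by -0.02 ± 0.07. Snrpa1, which encodes a protein of the U2 splicing particle, had 0.16 ± 0.10 with separate groups. The 3 members between Pcsk6 and Chsy1 and NAP114798-1 lay between -0.04 and 0.16. TC1685454, between H47 and Chsy1, was well above background on 2 arrays only and so is not a member. Without a filter on dim probes it passed the unadjusted threshold as higher.

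Pcsk6, 123 kb closer to the edge, differed in the opposite direction. It encodes the proprotein convertase PACE4, which cleaves precursors of secreted growth factors. Its values were 4.62, 4.52 and 4.53 in wild type and 4.13, 4.16 and 3.998 in patDp/+ fat. All patDp/+ animals lay below all wild type animals, by 0.46 on average (-0.46 ± 0.08, 1.37-fold lower, limma unadjusted p = 0.00117, adjusted p = 0.729). The second Pcsk6 probe, which reports a much dimmer signal, gave -1.56, -1.42 and -1.58 in wild type and -1.67, -1.91 and -2.16 in patDp/+ fat, also without overlap. Its difference of -0.39 ± 0.14 passed the unadjusted threshold (limma unadjusted p = 0.0284).

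**Figure D3:**
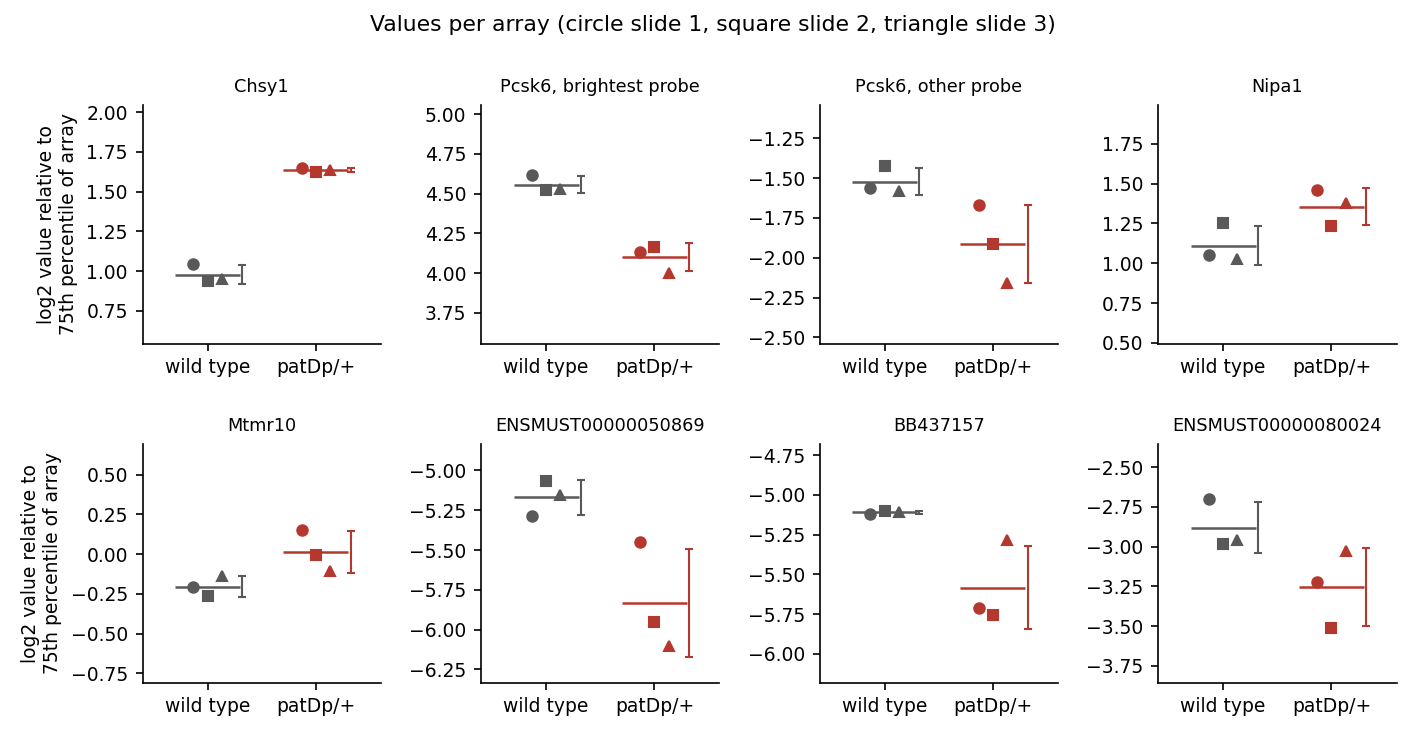
Log2 values relative to the 75th percentile of the array for 8 probes in the 3 wild type (grey) and 3 patDp/+ (red) animals. Horizontal lines are group means, bars beside them 1 SD, and the shape gives the slide; every panel spans 1.5 log2 units. Chsy1 was higher and Pcsk6 lower by both probes, with no overlap, while the bottom row's dim probes spread more in patDp/+ fat.

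The list matching human 15q26, to which Chsy1 and Pcsk6 belong, had all of its 16 genes on the array measured. Of these, 8 lay above 0 and the median was -0.01, with 1 passing higher and 1 lower. Igf1r, the receptor of insulin-like growth factor 1, was among the steadiest. Its values were 0.39, 0.31 and 0.30 in wild type and 0.28, 0.30 and 0.32 in patDp/+ fat, a difference of -0.03 ± 0.07. Mef2a, a transcription factor gene best known from muscle, differed by 0.02 ± 0.16 and Lrrk1, a kinase gene, by 0.03 ± 0.14. Aldh1a3, a retinoic acid synthesis enzyme, had -0.09 ± 0.12, Asb7, of a ubiquitin ligase complex, 0.03 ± 0.07, Lysmd4 -0.02 ± 0.08, Synm, an intermediate filament gene, -0.23 ± 0.14 and Arrdc4, an arrestin-domain gene, -0.11 ± 0.10.

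Nr2f2, which encodes the nuclear receptor COUP-TFII, lies 7.85 Mb from the telomeric edge, close to BB437157 (46.7 kb) and ENSMUST00000080024 (57.4 kb). Its values were 1.89, 1.68 and 1.88 in wild type and 1.44, 1.54 and 1.75 in patDp/+ fat. The groups overlapped through the third patDp/+ animal, and the difference of -0.24 ± 0.11 did not pass (limma unadjusted p = 0.0730). Its other probes gave -0.32 ± 0.12, which passed the unadjusted threshold (limma unadjusted p = 0.0367), and -0.21 ± 0.18. All 3 Nr2f2 probes thus lay below 0.

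BB437157 is an unnamed cDNA, and the array's annotation describes ENSMUST00000080024 as the gene B130024G19Rik. The values of BB437157 were -5.12, -5.10 and -5.11 in wild type and -5.71, -5.76 and -5.29 in patDp/+ fat, and it was not well above background on any patDp/+ array. With each patDp/+ value raised to the dimmest signal measured above background on its array (its own where brighter), BB437157 was 1.34-fold lower. That is not a lower bound, since its difference was -0.14 with the authors' deposited values and 0.56 with another background correction (normexp). Its fitted difference was -0.47 ± 0.14 (limma unadjusted p = 0.0130). ENSMUST00000080024, well above background on all 6 arrays, had -2.70, -2.99 and -2.96 in wild type and -3.22, -3.51 and -3.02 in patDp/+ fat. Its difference of -0.37 ± 0.15 was close to the threshold (limma unadjusted p = 0.0473).

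At the far end, Mctp2, a gene of a calcium-binding membrane protein 9.72 Mb from the edge, had 0.31 ± 0.15 with overlapping groups. ENSMUST00000154893, a cDNA 3.84 Mb from the edge, had 0.21 ± 0.09 with separate groups and missed the threshold (limma unadjusted p = 0.0512). The cDNA 1700112J16Rik, next to Lysmd4, also had separate groups, at 0.25 ± 0.12. D930030O05Rik, on 5 arrays, had -0.24 ± 0.12.

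On the centromeric side, 3 members lie between 3 and 6 Mb and 6 beyond that, and 7 of 14 genes on the list matching human 11p14 to 11p15 were measured. The median of that list was 0.01 with 0 past the unadjusted threshold. Zdhhc13, of the palmitoyltransferase family, had values of 0.27, -0.15 and -0.03 in wild type and 0.07, 0.09 and 0.47 in patDp/+ fat, with overlap and a difference of 0.18 ± 0.16. Prmt3, a protein arginine methyltransferase gene, had -1.65, -1.69 and -1.67 in wild type and -2.31, -1.59 and -1.76 in patDp/+ fat. Its difference of -0.21 ± 0.19 came mainly from the first patDp/+ animal.

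Svip, an inhibitor of protein degradation at the endoplasmic reticulum, differed by -0.07 ± 0.11, Gas2, a gene of a cytoskeletal protein, by 0.01 ± 0.14, Htatip2, an oxidoreductase gene, by 0.07 ± 0.18 and E2f8, a repressor of cell cycle genes, by 0.07 ± 0.10. The one member here that passed the unadjusted threshold is ENSMUST00000050869, which the array's annotation describes as a transcript of Nav2, a neuron navigator gene. Its values were -5.28, -5.06 and -5.15 in wild type and -5.45, -5.95 and -6.10 in patDp/+ fat, with no overlap. It was well above background on 3 wild type arrays and 1 patDp/+ array. On the other 2 its values lay below the dimmest signal measured above background there (-5.85 and -5.15), so the fitted difference of -0.67 ± 0.18 (limma unadjusted p = 0.00924) has no measured size. The authors' deposited values gave -0.18. The feature named Nav2 itself was not well above background on any array.

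The 8 members well above background on only 3 to 5 arrays were all lower in patDp/+ on slide 3 (median -0.57). The 49 members above background on all arrays had a median of 0.02 there, and 26 of them lay above 0. The array of patDp/+ replicate 3 had the fewest probes well above background, 63.3% against 66.4% to 71.6% on the others. Its dimmest signal above background was also the highest, at -5.15 against -5.85 to -5.62 on the others. The 8 were set apart by not being well above background on some arrays. Low values on this array were thus favoured by how the 8 were chosen. Without that animal ENSMUST00000050869 and BB437157 still passed the unadjusted threshold. Both met the signal rule through their 3 wild type arrays, so lower patDp/+ values were favoured whichever animal was left out. Leaving it out therefore cannot tell that array's part in their differences, which was not tested otherwise.

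The remaining 14 members, mostly cDNAs without a symbol and genes such as Tm2d3, Ttc23, Lins and Fancf, differed by -0.28 to 0.18, with SEs of 0.07 to 0.86 and no limma unadjusted p under 0.236. The largest of these errors was that of Apba2, an adaptor gene, on 4 arrays.

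Other probes of the same gene that met the signal rule were available for 25 members, 36 in all. In 13 of the 25 genes all probes had the same sign, and the median range between probes was 0.09. Of the other probes, 6 passed an unadjusted limma p under 0.05. Those of Pcsk6 and Nr2f2 shared the sign of the brighter probe, as did 1 of Prmt3 (-0.53 ± 0.11), whose remaining probes gave -0.01 ± 0.12 and 0.25 ± 0.14. The dim second probes of Lysmd4 (-0.49 ± 0.14) and Aldh1a3 (0.36 ± 0.13) and the third of Asb7 (0.66 ± 0.27) stood against brighter probes near 0. A gene's value therefore depended on the probe in these last cases and in Prmt3. The widest range was that of Lrrc28 (-0.14 to 0.67), with no probe passing. Probes of both signs were found in 12 of the 25 genes. For Pcsk6 the value did not depend on the probe.

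**Figure D4:**
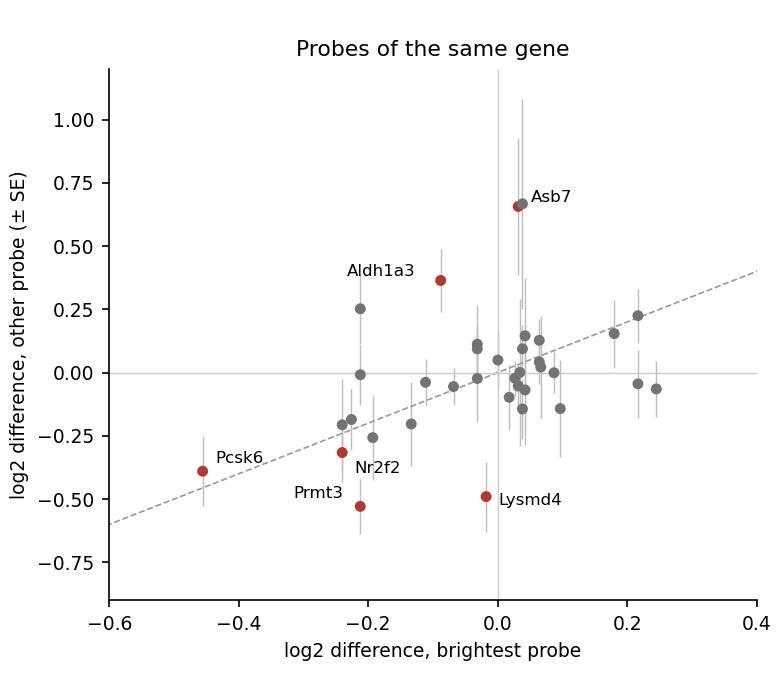
Log2 difference of each other probe of a gene (± SE) against that of its brightest probe, for the 25 members with more than 1 probe that met the signal rule. The dashed line marks equal values, and red points are the 6 other probes at an unadjusted limma p under 0.05. Pcsk6 lies near the line, whereas Asb7, Aldh1a3 and Lysmd4 lie away from it at a brightest probe near 0.

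The tissue label was checked against marker genes. All 6 adipocyte markers were measured, with 0 passing the unadjusted threshold and overlapping sums, and 0 of 5 epididymis markers were well above background on enough arrays. All 4 testis markers were measured, with 0 passing. Their summed linear level was low and overlapped, at 0.31 to 0.34 in wild type and 0.23 to 0.34 in patDp/+ fat. The sums of 3 other lists did not overlap between the genotypes. The summed linear level of 4 macrophage markers was 24.5 to 25.1 in wild type and 25.2 to 33.2 in patDp/+ fat, that of 4 T cell markers 0.48 to 0.57 and 0.67 to 0.79, and that of 2 skeletal muscle markers 1.67 to 2.17 and 3.69 to 7.26, the macrophage sums being separated by a narrow margin. Of these, 0 macrophage, 2 T cell (Cd3d and Cd8a) and 1 muscle marker (Acta1, with Tnnt3 at 0.01) passed the unadjusted threshold, all higher. The B cell list went the other way, with a median of -0.67 over 4 markers, 1 of them (Cd79b) lower at the unadjusted threshold, and overlapping sums. Their part in the differences of Chsy1 and Pcsk6 was not tested.

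The 5 members at an unadjusted p under 0.05 were followed through 15 other ways of treating the values. Chsy1 passed the unadjusted threshold in 15 of 15, at 0.51 to 0.69, and Pcsk6 in 15 of 15, at -0.55 to -0.41. With normexp background correction, which treats dim spots differently, the other 3 turned sign, ENSMUST00000050869 to 0.52, BB437157 to 0.56 and ENSMUST00000080024 to 0.19. With the authors' deposited values, BB437157 had -0.14 and ENSMUST00000080024 -0.24. ENSMUST00000050869 passed in 13 of the 14 alternatives that gave it a value, BB437157 in 10 of 14 and ENSMUST00000080024 in 7 of 15. Nr2f2 kept its sign in 15 of 15 and passed in 6, Nipa1 kept its sign in 15 and passed in 5, and Mtmr10 kept its sign in 15 and passed in 3.

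**Figure D5:**
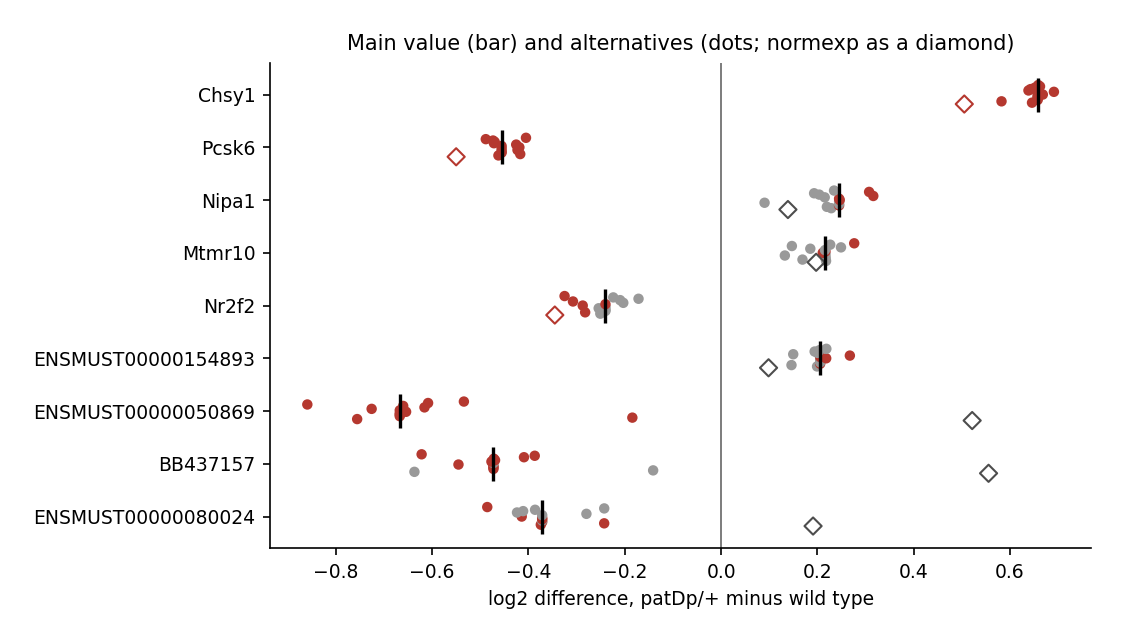
Log2 difference of 9 members in the main analysis (black bar) and in each alternative that gave a value (dots, with normexp background correction as an open diamond). Red marks an unadjusted limma p under 0.05 and grey one above it. Chsy1 and Pcsk6 stay on their side of 0 and red throughout, while the 3 dim features at the bottom cross 0 with normexp correction.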

How the data were processed

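Fat RNA of 3 patDp/+ and 3 wild type mice was hybridised to 1-colour (Cy3) Agilent arrays, grouped by sample title, since every source name says wild type. Each array came from its own mouse, per the series' design text. Per the file headers, intensity values were extracted with Feature Extraction 9.5.1.1 and are background-subtracted within an array. Feature Extraction 9.5 (Agilent) and limma 3.18.2 appear in the submitters' processing notes without their roles. The authors also deposited quantile-normalized log2 values, used as an alternative only; the sources used here do not give their background correction.

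Processed intensities were taken as log2 minus each array's 75th percentile, without outlier spots, and replicate spots were averaged. Between 26079 and 29472 probes were well above background per array, and the number of arrays limits the precision. Genotypes were compared over all 19009 features, 1 probe per name, with limma 3.58.1 in R 4.3.3 (lmFit, eBayes, two-sided, Benjamini-Hochberg). Other probes were compared in a separate fit of the same form over 27975 kept probes. The code was tested on simulated data. Replicate numbers equal slides. Same-numbered arrays' deviations from their group means correlated at 0.10, -0.09 and -0.04, so the numbers were not treated as pairs.

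The members and lists were chosen with earlier results of these data known. The rule for named genes takes members with an unadjusted p under 0.05, the 5 nearest each edge, Nipa1, Cyfip1, Klf13, Mtmr10, Pcsk6 and Chsy1, and the 2 with the smallest p of each list, and adds Herc2 and Mkrn3 as the ends. The other members named with values, and the 95% intervals, were chosen after values were seen. Symbols were current for 35 members by the GRCm38.p6 gene table; H47 is now Selenos and Ndnl2 Nsmce3.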

Additional observations from a re-analysis of the deposited data

How the results depend on the processing

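No alternative gave a member or any other feature an adjusted limma p under 0.05. Leaving out 1 animal at a time gave 1 to 3 members higher and 3 to 6 lower at the unadjusted threshold, with medians from -0.02 to 0.00. The count of higher members was 2 without the first wild type animal or the first or the second patDp/+ animal, and 3 without the second wild type animal or the third patDp/+ animal. Of the single animals left out, only patDp/+ replicate 3 left ENSMUST00000080024 past the unadjusted threshold. The count of higher members was 3 with probes above background on all 6 arrays, 4 without a filter, 5 with array weights and 4 with a trended, robust variance, and that of lower members 2 with normexp correction and 2 with probes above background on all 6 arrays. The median over members was 0.12 with normexp correction, where that of all features was 0.07, and 0.046 without a filter on dim probes. Blocking on the replicate number, which is also the slide, left 1 member higher and gave 5 lower, adding D930030O05Rik, with a median of 0.00, and changed no other call. Slide and replicate number are the same block, so 1 fit served for both.

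Besides the 3 dim features described above, normexp correction turned the sign of AK038901 (0.47), AK086452 (0.61), ENSMUST00000008043 (0.56), D930030O05Rik (0.62), Prmt3 (0.071), Lysmd4 (0.026), Cyfip1 (-0.059), Asb7 (-0.011) and Htatip2 (-0.060). ENSMUST00000050869 was 0.52, BB437157 0.56 and ENSMUST00000080024 0.19 there. Averaging the probes of a gene turned Tubgcp5 (-0.023), Aldh1a3 (0.14), Mef2a (-0.040) and Igf1r (0.038). Quantile normalization turned Gas2 (-0.0046), the deposited table H47 (0.0018) and E2f8 (-0.016), and array weights ENSMUST00000008043 (0.057). Leaving out 1 animal turned the sign of AK038901 (-0.20 to 0.00011), AK086452 (-0.51 to 0.28), ENSMUST00000008043 (-0.25 to 0.10), H47 (-0.050 to 0.011), Aldh1a3 (-0.17 to 0.023), Htatip2 (-0.046 to 0.24), Lrrk1 (-0.048 to 0.14), Mef2a (-0.11 to 0.17), Gas2 (-0.093 to 0.12), Svip (-0.14 to 0.015), Siglech (-0.14 to 0.66), Lysmd4 (-0.065 to 0.038) and E2f8 (-0.0094 to 0.15). Of all these members, ENSMUST00000050869, BB437157 and ENSMUST00000080024 had passed the unadjusted threshold in the main analysis and the others had not. The cause was not tested. Signal over background limits the 8 members measured on 3 to 5 arrays.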
